A study of Mus musculus with 8 samples.

Results

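The 34 genes described here mark or regulate the endothelium of the liver: 11 of the sinusoidal cells, 18 that most endothelial cells share, and 5 that encode angiocrine factors, the signals endothelial cells send to hepatocytes. They were listed by name and found through the gene symbols of the array platform, and each was read from its brightest probe set over the 8 arrays. All 34 were among the 18193 genes with a named probe set. Whole liver of 3 control mice and 5 POMCMfn2KO mice was measured, 1 GeneChip array per mouse. The controls carry the genotype WT in the labels; the POMCMfn2KO mice, by the name of the line, lack the mitochondrial fusion gene Mfn2 in POMC neurons. Both groups were 6 weeks old, of a mixed C57Bl/6J, FVB/N and 129 background, and were fed standard chow without restriction under a 12h-light/12h-dark cycle. Sex, collection time, batch and the Cre driver are not in the labels. The comparison asks how the liver's endothelial genes differ when Mfn2 is lost from these neurons.

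Sinusoidal endothelial cells line the liver's capillaries, have pores and no continuous basement membrane, and clear waste from the blood through scavenger and Fc receptors. They also make BMP2 and BMP6, which drive hepcidin transcription in hepatocytes. Endothelial cells near the central vein make the Wnt ligands WNT2 and WNT9B and the Wnt enhancer RSPO3, which maintain the pericentral programme of neighbouring hepatocytes.

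Promoter sequences are given for 4 of the genes that changed, and for Stab1, the close relative of Stab2, because transcription factors of the ETS family, among them ERG and FLI1, drive many endothelial genes. RefSeq's promoter table (GRCm38.p6) held windows for 17 of the 34 genes, of which the 250 bases before the start were searched on both strands. The ETS core searched was AGGAAG. Its reverse complement reads CTTCCT. Capitals mark either form. For GATA factors, another family of endothelium, only the word AGATAA and its reverse complement were searched. Windows and strands are those of the table.
Stab2, chr10:87007943-87008192, - strand: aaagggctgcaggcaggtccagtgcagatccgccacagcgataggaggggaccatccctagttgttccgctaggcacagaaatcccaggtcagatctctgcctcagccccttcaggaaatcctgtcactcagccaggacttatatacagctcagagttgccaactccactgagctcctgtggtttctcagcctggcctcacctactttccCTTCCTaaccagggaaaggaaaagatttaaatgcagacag
Stab1, chr14:31168642-31168891, - strand: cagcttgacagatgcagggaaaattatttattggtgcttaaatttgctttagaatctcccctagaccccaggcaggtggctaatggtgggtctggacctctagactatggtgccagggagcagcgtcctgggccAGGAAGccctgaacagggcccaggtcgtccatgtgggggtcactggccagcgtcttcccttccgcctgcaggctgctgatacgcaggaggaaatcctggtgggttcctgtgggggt
Eng, chr2:32646345-32646594, + strand: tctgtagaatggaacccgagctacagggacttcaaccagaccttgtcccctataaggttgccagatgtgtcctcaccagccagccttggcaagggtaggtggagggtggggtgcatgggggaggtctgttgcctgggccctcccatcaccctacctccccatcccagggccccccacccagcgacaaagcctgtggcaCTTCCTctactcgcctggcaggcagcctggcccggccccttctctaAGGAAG
Fcgr2b, chr1:170976072-170976321, - strand: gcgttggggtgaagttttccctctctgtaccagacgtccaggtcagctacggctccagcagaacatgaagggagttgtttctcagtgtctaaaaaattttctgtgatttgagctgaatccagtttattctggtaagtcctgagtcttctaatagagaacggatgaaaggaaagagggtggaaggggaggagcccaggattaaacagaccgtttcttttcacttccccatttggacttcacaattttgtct
Ehd3, chr17:73804591-73804840, + strand: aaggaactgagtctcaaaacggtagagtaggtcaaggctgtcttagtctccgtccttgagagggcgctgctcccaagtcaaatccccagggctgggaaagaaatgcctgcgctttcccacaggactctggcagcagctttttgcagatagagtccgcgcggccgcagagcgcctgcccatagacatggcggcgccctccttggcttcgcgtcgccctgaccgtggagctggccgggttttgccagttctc
Stab2 and Stab1 hold 1 such word each and Eng holds 2, of which 1 ends at the last base before the start. Fcgr2b and Ehd3 hold none in this window. Of the 17 genes, 10 had the ETS word, namely Clec4g, Egfl7, Emcn, Eng, Flt1, Mrc1, Robo4, Stab1, Stab2 and Tie1. Counted by window, since Egfl7 has 3, the word was in 11 of 19 windows, and in 29.5% of all 32851 windows of the table. The word AGATAA was in none of the windows of these 17 genes, against 9.99% of all windows. Other words that hold GATA were not searched, and the Ehd3 window shown has one, agatag. The absence of AGATAA therefore does not show that these windows lack GATA words. A match of these letters is a description of the sequence and not a binding site.

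The genes of the 34 that passed the test were all higher in POMCMfn2KO liver. Stab2, Gpr182, Fcgr2b and Ehd3 of the sinusoidal genes rose, with Eng, Ptprb and Esam of the shared endothelial genes and Bmp2 of the angiocrine genes. The rises lay between 1.18-fold for Eng and 1.57-fold for Gpr182. Of the 34 genes, 32 had a mean at or above 5.80, the level on the log2 scale under which genes were left out as dim, and could be tested; 8 of them (25.0%) rose and none fell, at an adjusted p below 0.05 in limma. Over all 11986 genes tested, 7.02% rose and 10.9% fell. At an unadjusted p below 0.05, 16 of the 32 passed. The median log2 difference of the 32 was 0.25, with 28 above 0, while that of all genes tested was -0.02, with 45.8% above 0. Sparcl1 counts among the 16, the 28 and the median of the 32. Its controls were all under the dim level, so it was tested only because of the POMCMfn2KO arrays. Every POMCMfn2KO array lay above every control for 9 of the 32 genes, against 12.0% of all genes tested, and below every control for none, against 16.5%. In whole-liver RNA, a change in the number of endothelial cells and a change in RNA per cell cannot be told apart.

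**Figure D1:**
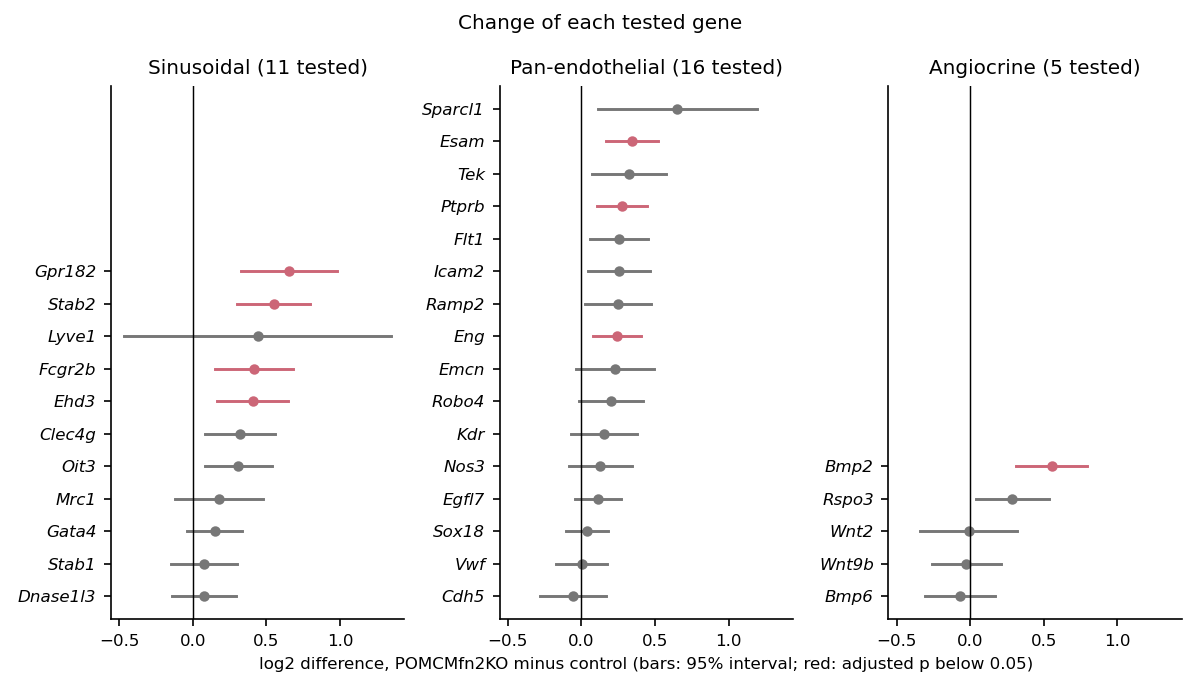
Log2 difference between POMCMfn2KO and control liver (x axis) for each of the 32 tested genes (y axis), by role; points are differences of the group means (3 controls, 5 POMCMfn2KO), bars 95% intervals from limma, red marks an adjusted p below 0.05. All 11 sinusoidal points lie right of 0, between 0.075 and 0.65, while the angiocrine points of Bmp6, Wnt2 and Wnt9b lie near 0.

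The number of calls changed when single arrays were left out. Without control 3 none of the 32 genes passed the adjusted threshold in limma, although 28 were still above 0 and 11 had an unadjusted p below 0.05. Without control 2 only Bmp2 passed, and without control 1, 8 passed. The share of all genes tested that rose was 2.53%, 2.39% and 2.71% without control 3, 2 and 1. It was 7.02% with all arrays. Without POMCMfn2KO 2, 3 or 5, 4 genes passed each time (Stab2, Gpr182, Esam and Bmp2), and without POMCMfn2KO 4, 12 passed. Those 12 include Sparcl1, whose controls were all under the dim level. Without POMCMfn2KO 1, 8 passed. Of all genes tested, 4.76%, 4.23% and 5.85% rose without POMCMfn2KO 2, 3 and 5. Without POMCMfn2KO 4 and 1 that share was 9.64% and 9.33%. POMCMfn2KO 2 and 3 carried pancreatic acinar transcripts: the median of 12 acinar genes lay 4.47 and 4.68 above the control mean in these arrays and between -0.05 and 0.13 in the other POMCMfn2KO arrays. Without both arrays Bmp2 alone passed (adjusted p = 0.0265) and the median difference of the 32 genes was 0.26; over all genes tested, 239 then rose. What part the pancreatic RNA has in the endothelial values was not tested.

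Among the scavenger receptors of the sinusoid, Stab2 rose and its relative Stab1 did not pass. Stab2, which takes up hyaluronan from the blood, read 9.21, 9.00 and 8.86 on the log2 scale in the 3 controls and 9.73, 9.62, 9.63, 9.30 and 9.58 in the 5 POMCMfn2KO livers. The groups did not overlap, and POMCMfn2KO 4 was the lowest of its group. The difference was 0.55 (95% interval 0.30 to 0.80), 1.47-fold, with an adjusted p of 0.0107; without control 2 or 3, or POMCMfn2KO 2 and 3 together, the adjusted p rose above 0.05, to at most 0.0751. Stab1, a scavenger receptor also found on some macrophages, read 7.95, 7.95 and 8.02 in controls and 8.17, 8.08, 8.09, 7.75 and 8.16 in POMCMfn2KO livers. POMCMfn2KO 4 lay below all controls and the other 4 above them. The difference of Stab1 was 0.08 (95% interval -0.14 to 0.30, adjusted p = 0.630); the difference between the 2 changes was not tested.

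Gpr182, an atypical chemokine receptor of endothelial cells, had the largest difference among the sinusoidal genes. Its log2 levels were 8.26, 8.05 and 8.11 in controls and 8.81, 8.84, 8.88, 8.35 and 9.08 in POMCMfn2KO livers. All POMCMfn2KO values exceeded all controls, with POMCMfn2KO 4 only just above control 1. The rise was 0.65 (SE 0.14), 1.57-fold, with an adjusted p of 0.0154, and up to 0.0933 without control 2 or 3 or POMCMfn2KO 2 and 3 together. Ehd3, an ATPase of endosome recycling, read 9.20, 8.93 and 8.85 in controls and 9.35, 9.46, 9.53, 9.17 and 9.49 in POMCMfn2KO livers. Here POMCMfn2KO 4 lay below control 1. The rise of 0.41 (SE 0.11; adjusted p = 0.0306) was met by one of 0.38 on a second probe set.

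Fcgr2b, the inhibitory IgG receptor through which sinusoidal cells remove immune complexes, rose on its brightest probe set. Levels were 10.49, 10.09 and 10.03 in controls and 10.43, 10.69, 10.60, 10.58 and 10.79 in POMCMfn2KO livers, so control 1 lay inside the POMCMfn2KO range. The rise was 0.41 (SE 0.12; adjusted p = 0.0403). A further 3 probe sets above the dim level gave 0.11, 0.15 and 0.21. Averaging all its probe sets, a dim one among them, ended the call (adjusted p = 0.129 in limma). The brightest probe set is of a type that can bind transcripts of related genes, so its value may include other Fc receptors. Fcgr2b is also expressed by B cells and macrophages; the B cell genes Cd79a, Cd79b and Ms4a1 were below the dim level.

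The remaining sinusoidal genes did not pass. Clec4g, the lectin LSECtin, differed by 0.32 (adjusted p = 0.0621) and Oit3, a zona pellucida domain protein of liver endothelium, by 0.31 (adjusted p = 0.0623), with 95% intervals of 0.09 to 0.56 and 0.08 to 0.54. Both passed when POMCMfn2KO 4 was left out, after quantile normalization, and with arrays centred on the median of the tested genes. Mrc1, the mannose receptor, differed by 0.18 (-0.12 to 0.48), Gata4, a transcription factor of sinusoidal identity, by 0.15 (-0.04 to 0.34) and Dnase1l3, a secreted nuclease, by 0.075 (-0.14 to 0.29). Lyve1, a hyaluronan receptor of lymphatic and sinusoidal endothelium, spread most. It read 8.49, 8.15 and 8.03 in controls but 9.79, 8.71, 8.47, 7.51 and 8.86 in POMCMfn2KO livers. POMCMfn2KO 1 was the highest and POMCMfn2KO 4 the lowest of all 8 arrays, so the difference of 0.44 had an interval from -0.46 to 1.35. For all 11 sinusoidal genes together the count was 4 risen (36.4%) and none fallen, with a median difference of 0.32. This stands beside 7.02% risen and 10.9% fallen over all genes tested.

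**Figure D2:**
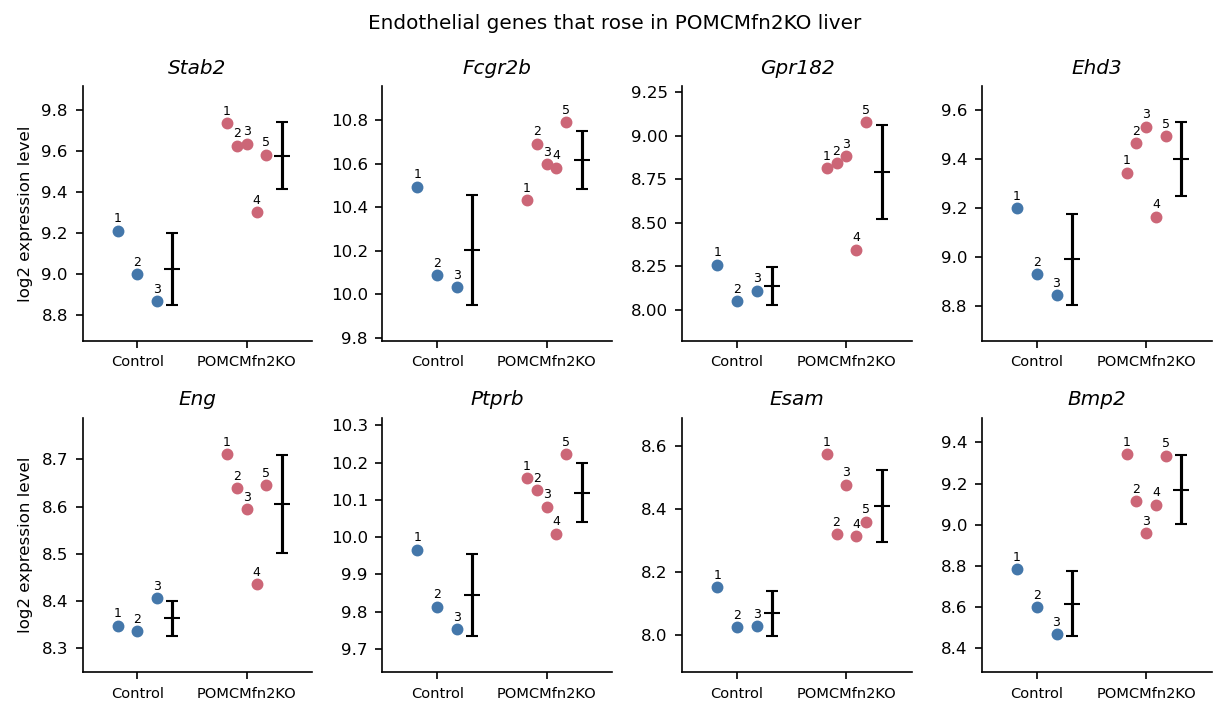
Log2 expression level (y axis) of the 8 genes that rose, in each control (blue, n = 3) and POMCMfn2KO (red, n = 5) array; small numbers are replicate numbers, bars the group mean with its SD, and each panel has its own y axis. The groups are apart for Stab2, Gpr182, Eng, Ptprb, Esam and Bmp2, while control 1 reaches into the POMCMfn2KO range for Fcgr2b and Ehd3.

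Of the 18 genes shared by most endothelial cells (pan-endothelial), 16 were tested, 3 rose (18.8%) and none fell, with a median difference of 0.24. This stands beside 7.02% risen and 10.9% fallen over all genes tested. The 16 and their median include Sparcl1, which was tested only because of the POMCMfn2KO arrays. Esam, an adhesion molecule of endothelial junctions, read 8.15, 8.02 and 8.03 in controls and 8.57, 8.32, 8.48, 8.31 and 8.36 in POMCMfn2KO livers. The groups were apart, and the rise was 0.34 (SE 0.08; adjusted p = 0.0185), with the call lost without control 2 or 3 or POMCMfn2KO 2 and 3 together (up to 0.0854). Ptprb, the phosphatase VE-PTP that acts on TIE2 and VE-cadherin, read 9.97, 9.81 and 9.75 in controls and 10.16, 10.13, 10.08, 10.01 and 10.22 in POMCMfn2KO livers. POMCMfn2KO 4 was again the lowest of its group, but above every control. Its rise was 0.28 (SE 0.07; adjusted p = 0.0327), and a second bright probe set gave 0.47. Eng, the co-receptor endoglin of BMP9 signalling, read 8.35, 8.34 and 8.40 in controls and 8.71, 8.64, 8.59, 8.44 and 8.64 in POMCMfn2KO livers. The rise of Eng was 0.24 (SE 0.07; adjusted p = 0.0464), while its second probe set gave -0.087, and the call was lost with the mean of both (adjusted p = 0.513) and without any single array but POMCMfn2KO 4.

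The receptors for VEGF and angiopoietin differed upward without passing. Flt1, VEGF receptor 1, read 7.19, 7.25 and 7.30 in controls and 7.58, 7.61, 7.34, 7.35 and 7.63 in POMCMfn2KO livers. All POMCMfn2KO values were above all controls, but the difference of 0.26 had an adjusted p of 0.0742. Other probe sets of Flt1 gave 0.56, 0.09 and, on a dim one, -0.012, and it passed when all 4 were averaged. Tek, the angiopoietin receptor TIE2, differed by 0.32 (adjusted p = 0.0733) and Kdr, VEGF receptor 2, by 0.16 (95% interval -0.07 to 0.38). Icam2, an adhesion molecule for leukocytes, differed by 0.25 and Ramp2, a partner of the adrenomedullin receptor, by 0.25; in both, the groups were apart and the adjusted p was 0.0911 and 0.112.

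None of the other shared genes passed. Cdh5, which encodes VE-cadherin and defines the lineage, differed by -0.06 (95% interval -0.28 to 0.17). Vwf, von Willebrand factor of large-vessel endothelium, differed by 0.00 (-0.17 to 0.17), and Sox18, an endothelial transcription factor, by 0.04 (-0.10 to 0.18). Emcn, the sialomucin endomucin, gave 0.23, Robo4, a guidance receptor, 0.20, Nos3, endothelial nitric oxide synthase, 0.13, and Egfl7, a secreted vascular protein, 0.11. Sparcl1, a matrix protein of large vessels, read 5.33, 5.35 and 5.52 in controls and 6.31, 6.29, 6.31, 5.20 and 6.15 in POMCMfn2KO livers. POMCMfn2KO 4 lay below every control and the other 4 above them all. All controls of Sparcl1 were under the dim level of 5.80, so the gene was tested only because of the POMCMfn2KO arrays, and background limits its difference of 0.65 (adjusted p = 0.0895). Pecam1 (5.71 ± 0.06 in controls, 5.83 ± 0.10 in POMCMfn2KO, SD, n = 3 and 5) and Tie1 (5.74 ± 0.13 and 5.75 ± 0.13) were dim and untested, so the defining adhesion molecule PECAM1 could not be assessed on this array.

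Among the angiocrine genes, Bmp2 rose and the other 4 did not pass. Bmp2 read 8.78, 8.60 and 8.47 in controls and 9.34, 9.11, 8.96, 9.10 and 9.34 in POMCMfn2KO livers. The groups did not overlap, and here POMCMfn2KO 3, not 4, was the lowest of its group. The rise of 0.55 (95% interval 0.31 to 0.80), 1.47-fold, had an adjusted p of 0.00995 and was lost only without control 3 (adjusted p = 0.0541) among all alternatives tried. Bmp6, the other BMP ligand of the sinusoid, read 6.30, 6.02 and 6.13 in controls and 5.80, 6.08, 6.15, 6.15 and 6.22 in POMCMfn2KO livers. Its difference was -0.07 (-0.31 to 0.17); the difference between the changes of the 2 ligands was not tested. Wnt2 differed by -0.01 (-0.34 to 0.32) and Wnt9b by -0.03 (-0.26 to 0.21). Rspo3 read 7.07, 6.88 and 6.71 in controls and 7.03, 7.11, 7.16, 7.46 and 7.10 in POMCMfn2KO livers, with control 1 inside the POMCMfn2KO range. Its difference of 0.29 had an adjusted p of 0.106 in limma on this probe set. Rspo3 passed when this was averaged with its second probe set, which was dim (4.53 in controls, 4.66 in POMCMfn2KO). The averaged control mean lay under the dim level, so the gene was tested there only because of the POMCMfn2KO arrays. Nothing is drawn from that call. The median over the 5 genes was -0.01.

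**Figure D3:**
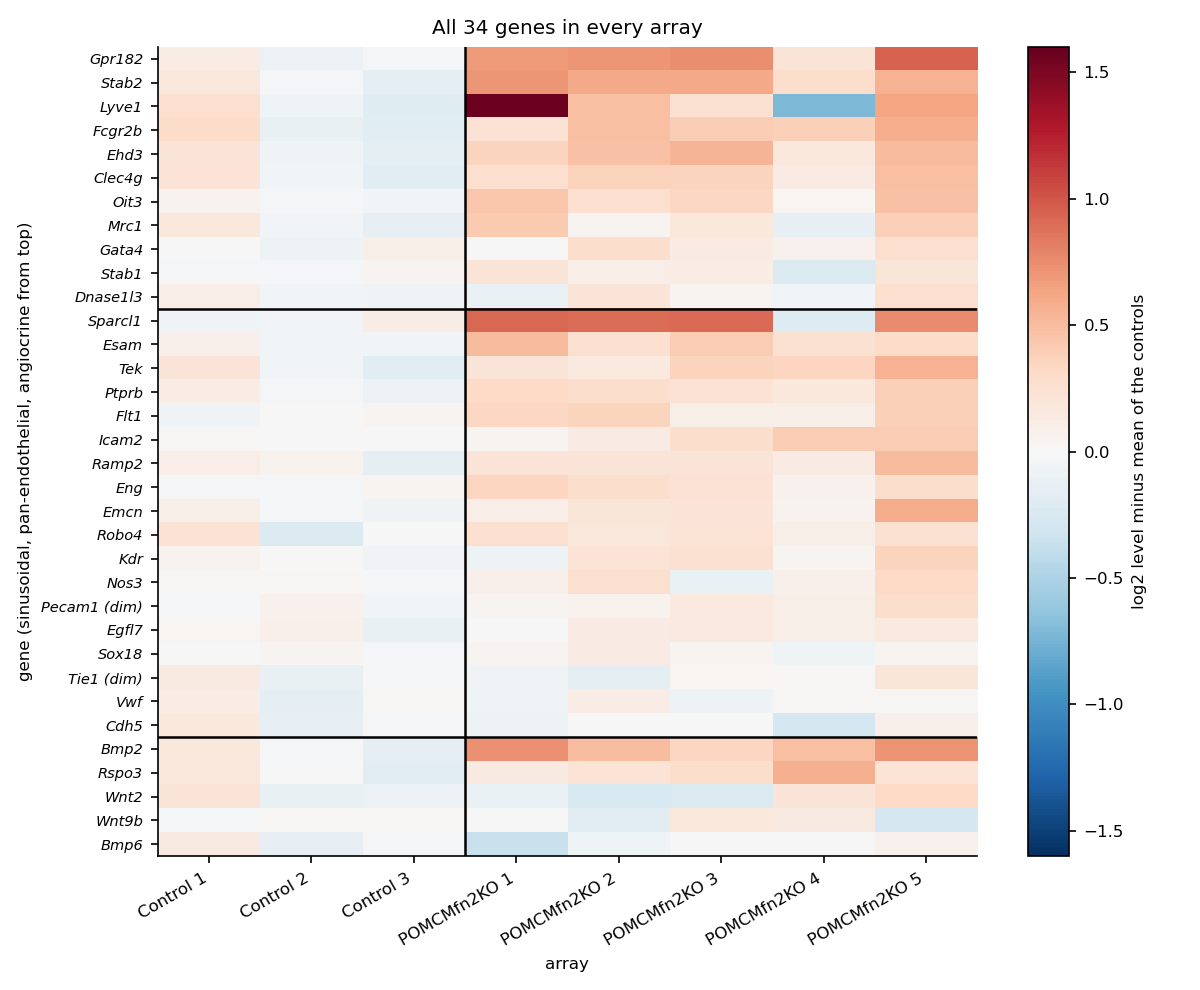
Log2 level of each of the 34 genes (rows) in each array (columns) minus the mean of the 3 controls, on a colour scale from blue (lower) to red (higher); horizontal lines part the sinusoidal, shared endothelial and angiocrine genes, and the vertical line parts the groups. POMCMfn2KO 4 is paler than the other POMCMfn2KO arrays in the sinusoidal rows, where its median is 0.07 against 0.33 to 0.48 in the others.

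The livers differed among themselves in these genes in a patterned way. Control 1 was the highest of the 3 controls for 24 of the 32 tested genes, against 41.0% of all genes tested. POMCMfn2KO 5 was the highest of its group for 16 of the 32, against 26.1% of all genes, and POMCMfn2KO 4 the lowest for 17, against 22.2%. For the 11 sinusoidal genes, the median deviation from the control mean was 0.35, 0.37, 0.33, 0.07 and 0.48 in POMCMfn2KO 1 to 5, and 0.17 in control 1. POMCMfn2KO 4 thus lay inside the control range in this median and the other 4 POMCMfn2KO livers above it. The median SD of the 32 genes was 0.11 in controls and 0.16 in POMCMfn2KO, compared with 0.07 and 0.13 over all genes tested.

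Markers of other liver cells were read in the same arrays. The share that rose was 6.67% of the macrophage, 7.14% of the stellate cell and 10% of the hepatocyte genes tested. Over all genes tested, 7.02% rose and 10.9% fell, so nothing particular to a cell type is read from the shares that rose. Of 15 Kupffer cell and macrophage genes, Cd163, a haemoglobin scavenger receptor, rose (1.46, adjusted p = 0.0132), and Timd4 (-0.69), a receptor for dying cells, and Folr2 (-0.50), a folate receptor, fell; the median difference was -0.32. Of these 15, 13 differed downward and 2 upward, and 8, Cd163 among them, had an unadjusted p below 0.05 in limma. Clec4f, which defines Kupffer cells, differed by 0.10 (adjusted p = 0.729). Control 1 was the highest control, and POMCMfn2KO 5 the highest POMCMfn2KO array, for all 15, and POMCMfn2KO 4 was the lowest for 11. The mean log2 level of the 15 genes was 9.00 to 9.34 in controls and 8.60 to 9.36 in POMCMfn2KO. Of 14 stellate cell and fibroblast genes, Hand2 rose (0.40, adjusted p = 0.0419 in limma) and none fell. Averaged with a second bright probe set near 0 and a dim one, Hand2 had an adjusted p of 0.0622. The list had a median of 0.02 and a mean level of 8.49 to 8.66 in controls and 8.49 to 8.72 in POMCMfn2KO. Of 10 hepatocyte genes Cps1 rose (0.31) and none fell, and none of 4 lymphocyte and 4 bile duct genes passed in limma (0 at an unadjusted p below 0.05). Without control 1, 2 or 3 the number of macrophage genes that fell was 1, beside 4.14% to 4.67% of all genes tested. It was 7 without POMCMfn2KO 5, beside 10.5% of all genes tested. Cd163 was lost without control 2 or 3 or POMCMfn2KO 2 and 3 together, Folr2 without any control or POMCMfn2KO 2, 3 or 4, Cps1 without any control or POMCMfn2KO 3, and Hand2 without control 2 or 3 or POMCMfn2KO 1, 2, 4 or 5. The part of cell composition in the endothelial values was not tested.

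**Figure D4:**
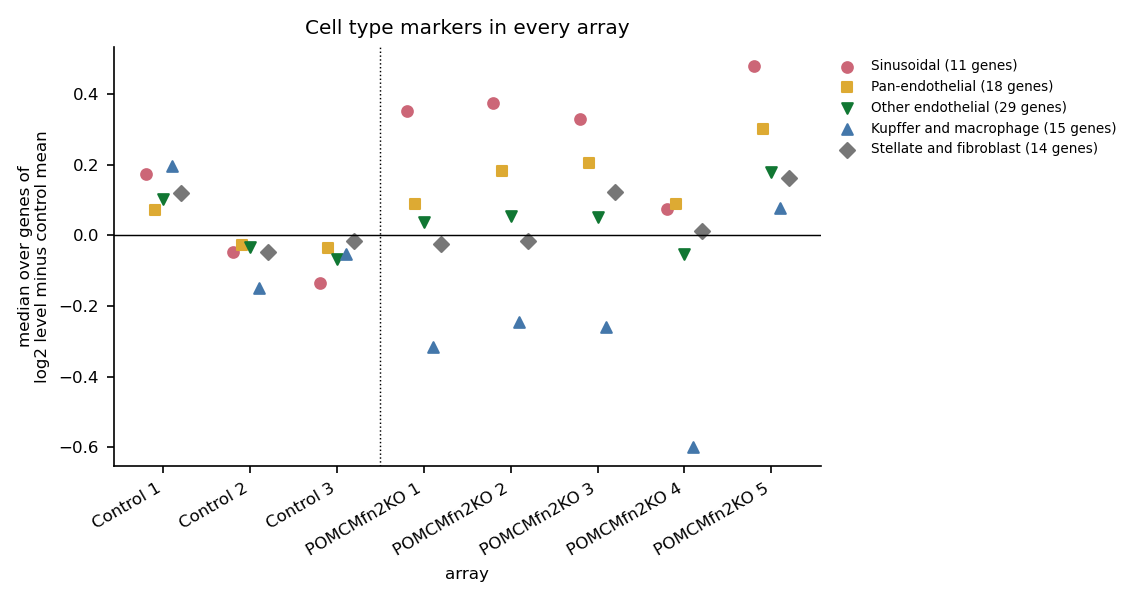
Median over the genes of each list of the log2 level minus the mean of the controls (y axis) in each of the 8 arrays (x axis), for the sinusoidal, pan-endothelial, other endothelial, Kupffer and macrophage, and stellate and fibroblast lists. The sinusoidal list lies above 0.3 in POMCMfn2KO 1, 2, 3 and 5, the macrophage list lies below 0 in POMCMfn2KO 1 to 4, and control 1 is the highest control for each of the lists plotted.

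Of a further list of 30 endothelial genes, 29 were found on the array and 23 were tested. Among them, Clec14a (0.40, adjusted p = 0.00763), a lectin of vessel sprouting, and Cldn5 (0.37, adjusted p = 0.0367), a tight junction protein, rose. Sox7 (-0.33, adjusted p = 0.0192), a transcription factor related to SOX18, and Lmo2 (-0.62, adjusted p = 0.0214), a partner of blood and endothelial transcription factors, fell. The share that rose was 8.70%, near that of all genes tested, and the median difference was 0.08. Plvap, the diaphragm protein of fenestrae, differed by 0.03 and the ETS factors Erg and Fli1 by 0.08 and -0.19. A second probe set of Clec14a gave 0.19. Without POMCMfn2KO 2 and 3 none of these 4 passed (adjusted p up to 0.0913); Lmo2 and Cldn5 were also lost without any single control or POMCMfn2KO 3, Cldn5 without POMCMfn2KO 2, and Sox7 without control 1 or 2.

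Of the ligands and partners of these receptors, Vegfa rose. Vegfa, the hepatocyte-made ligand of KDR and FLT1, read 8.70, 8.89 and 8.83 in controls and 9.03, 9.24, 9.11, 9.00 and 9.36 in POMCMfn2KO livers. The groups were apart, the rise was 0.34 (SE 0.10; adjusted p = 0.0376) and a second probe set gave 0.26. Of the 14 VEGF, angiopoietin and Notch genes tested, Vegfa alone rose (7.14%) and none fell. Over all genes tested, 7.02% rose and 10.9% fell, so nothing particular to the list is read from this count. Dll1 (-0.23) and Nrp2 (-0.25), a Notch ligand and a VEGF co-receptor, did not pass, nor did Angptl6 (0.28). The angiopoietin genes Angpt1 and Angpt2 were dim, with means of 4.57 and 5.03 in controls. Vegfa lost its call without any single control, without POMCMfn2KO 2 or 3, and without both (adjusted p up to 0.152). Without POMCMfn2KO 1, Angptl6 rose as well (adjusted p = 0.00689), and without POMCMfn2KO 4 or 5, 1 gene of the list fell. Of all genes tested, 9.33% rose without POMCMfn2KO 1, and 13.3% and 10.5% fell without POMCMfn2KO 4 and 5.

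Of 21 tested genes that receive or answer to BMP, 3 rose and 4 fell, with a median of -0.10, beside 7.02% risen and 10.9% fallen over all genes tested; nothing particular to the list is read from these counts. Hjv, the BMP co-receptor hemojuvelin of hepatocytes, fell by 0.57 (adjusted p = 0.0111), on both of its bright probe sets. Neo1, the hemojuvelin-binding receptor neogenin, fell by 0.39, Hfe, a partner of the transferrin receptors, by 0.43, and Tmprss6, the protease that cleaves hemojuvelin, by 0.26. Bambi, a decoy receptor, rose by 0.44 (adjusted p = 0.00738), and Atoh8, a BMP-responsive transcription factor, by 0.38. Hamp, which encodes hepcidin and answers to BMP2 and BMP6, read 13.39, 13.27 and 13.22 in controls and 13.22, 13.48, 13.38, 13.58 and 12.72 in POMCMfn2KO livers. The control range lay within that of POMCMfn2KO, and the difference was -0.02 (95% interval -0.41 to 0.37). Its copy Hamp2 rose by 0.66 on a probe set that can bind related transcripts, so its value may include Hamp. The immediate BMP targets Id1 and Smad7 differed by -0.20 (-0.87 to 0.46) and -0.10 (-0.43 to 0.22). Without control 1 or 2 the counts were 1 risen and none fallen, and without control 3 they were 2 and 1. Without POMCMfn2KO 3 they were 2 and 2, and without POMCMfn2KO 2 and 3 together none rose and 1, Hjv, fell. Of all genes tested, 2.71%, 2.39% and 2.53% rose and 4.14%, 4.46% and 4.67% fell without control 1, 2 and 3. These shares were 4.23% and 7.44% without POMCMfn2KO 3, and 1.99% and 3.35% without POMCMfn2KO 2 and 3 together.

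Of 24 tested Wnt receptors and pericentral genes, 6 fell and 3 rose, with a median of -0.07, beside 10.9% fallen and 7.02% risen over all genes tested. Slc13a3, a dicarboxylate transporter, fell from 9.44 ± 0.13 (SD, n = 3) to 7.86 ± 0.26 (n = 5), Rhbg, an ammonium transporter, by 0.87 and Slc1a2, a glutamate transporter, by 0.83. Glul, glutamine synthetase of the innermost pericentral hepatocytes, read 13.42, 13.46 and 13.40 in controls and 12.89, 12.94, 12.85, 13.15 and 12.92 in POMCMfn2KO livers. All POMCMfn2KO values were below all controls, a fall of 0.48 (SE 0.08; adjusted p = 0.00467) that passed under every alternative tried. Lect2, a secreted hepatokine, fell by 1.11 and Lgr4, an RSPO receptor, by 0.22, while Cyp27a1 (0.66), Cyp1a2 (0.45) and Znrf3 (0.35), the last a Wnt feedback inhibitor, rose. Axin2, a Wnt feedback gene, and Lgr5, an RSPO receptor, did not pass: Axin2 differed by 0.03 (-0.29 to 0.34) and Lgr5 by -0.12 (-0.57 to 0.32). Other bright probe sets of Slc1a2 gave -0.24, 0.04 and 0.01. Averaging all its probe sets, a dim one among them, ended its call (adjusted p = 0.0916 in limma). The only other probe set of Znrf3 was dim (-0.16), and averaging with it ended that call (adjusted p = 0.281 in limma). Lgr4 was lost under 12 of the 18 alternatives, among them leaving out any single control (adjusted p up to 0.196), and Cyp1a2 under 8, also among them any single control (up to 0.151). Without POMCMfn2KO 2 and 3 together, 1 rose and 4 fell, with Lect2 and Znrf3 among those lost. Of all genes tested, 1.99% then rose and 3.35% fell. No relation between the levels of Wnt2, Wnt9b, Rspo3 or Bmp2 and these genes was tested.

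**Figure D5:**
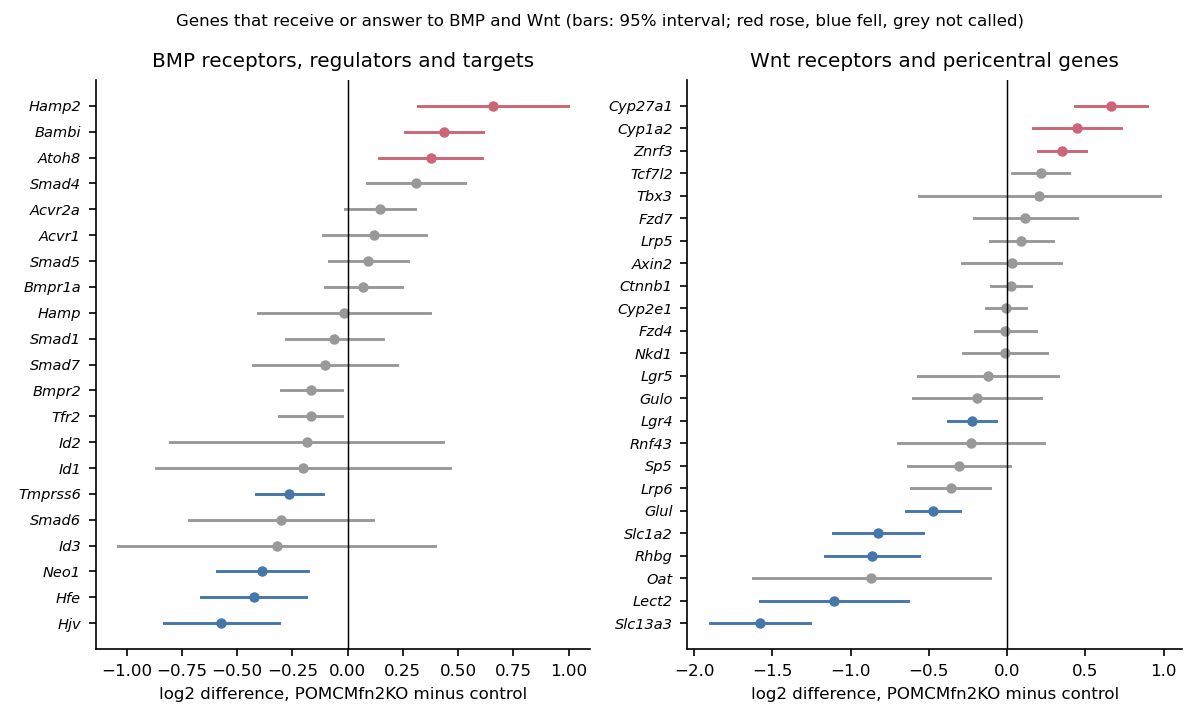
Log2 difference between POMCMfn2KO and control liver (x axis) for 21 genes that receive or answer to BMP (left) and 24 Wnt receptors and pericentral genes (right); points are differences of group means, bars 95% intervals from limma, red marks genes that rose, blue those that fell and grey those that did not pass. Hamp, Axin2 and Lgr5 lie among the grey points near 0, while Hjv and Slc13a3 have the largest falls of their panels.

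Over all probe sets, the 3 controls correlated with each other at 0.997 to 0.998, more closely than the POMCMfn2KO livers did (0.990 to 0.996), and POMCMfn2KO 4 lay nearest to the controls (0.992 to 0.993). The ratio of 3' to 5' control probe sets, a sign of RNA integrity, was 1.12 to 1.19 on the log2 scale for Actb in controls and 1.04 to 1.18 in POMCMfn2KO. The deletion is aimed at neurons, so the level of Mfn2 in liver (-0.27, adjusted p = 0.169) does not check the labels. Alb, the albumin gene of hepatocytes, read 15.2 to 15.3 in every array. Nothing in the labels says more of how the mice of a group were drawn. The p-values set the group difference against the spread within these groups, and what wider population they speak for is not known.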

How the data were processed

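The authors deposited log2 expression values per probe set, made with RMA of the affy package, per the submitters' processing notes (versions not given in the sources used here). They were used as deposited; array medians lay between 5.79 and 5.81. Of 45101 probe sets, 34945 had 1 gene symbol, 932 several, 9160 none, and 64 were controls. Each gene was read from its brightest probe set. Those averaging at least 5.80, the midpoint of all probe sets but the controls, were tested (11986 genes). POMCMfn2KO was compared with control by limma 3.58.1 in R 4.3.3 (moderated variance, 2-sided, Benjamini-Hochberg over all genes tested, threshold 0.05); "rose" and "fell" refer to this threshold, and SE and 95% intervals are from the same fit. The fit was tested on simulated data with the same spread in both groups. Over all genes tested, the median SD was 0.07 in controls and 0.13 in POMCMfn2KO. The simulation therefore cannot tell how this unequal spread affects the calls. Precision is limited by the number of arrays. Plots used matplotlib 3.10.9 (Python 3.11.15).

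The members and lists were chosen with earlier results of these data known. Named by rule were all 34 members, the 4 genes with the lowest p of each of the 4 further endothelial and signalling lists, and Hamp, Id1, Smad7, Axin2, Lgr5, Glul, Vegfa, Angpt1 and Angpt2; others were named after their values were seen. Other settings were tried for dim genes, probe sets, scaling and variance, with weights per array, with a replicate block and with arrays left out; centring on the tested genes was chosen after seeing the data.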

Additional observations from a re-analysis of the deposited data

Results flagged for a closer look

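Among 58 genes checked, the 34 members and the other named genes, 6 had 1 POMCMfn2KO array far from the other 4, by a gap above 0.71 of the group's range; chance flags about 1 in 20 groups. POMCMfn2KO 4 was low for Stab1, at 7.75 against 8.08 to 8.17 in the others, and for Sparcl1, at 5.20 against 6.15 to 6.31. It was high for Glul, at 13.15 against 12.85 to 12.94. For Stab1 and Sparcl1 it lay below every control, and for Glul it lay between the other POMCMfn2KO arrays and the controls. POMCMfn2KO 5 was high for Ramp2, at 8.65 against 8.28 to 8.36, for Emcn, at 7.27 against 6.73 to 6.89, and for Cldn5, at 8.32 against 7.91 to 7.99. The control group has 3 arrays and was not checked in this way.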

How the results depend on the processing

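The direction of the 8 calls held under all 18 alternatives, except that the second probe set of Eng gave -0.087; no member fell under any of them. The number that rose was 7 to 12 with other filters, scalings, probe set rules, variance models or weights. It was 1 without POMCMfn2KO 2 and 3 together, where 239 genes of all tested rose and 401 fell, and 0 to 12 when 1 array was left out, where 286 to 1156 of all genes rose and 496 to 1642 fell. Array weights by genotype gave 1323 risen genes. Centring on the tested genes gave 11 members and, over all genes, 48.5% of calls upward in place of 39.1%. With the replicate number as a block, 7 members rose: Ehd3, Eng, Fcgr2b and Ptprb were lost and Lyve1, Oit3 and Sparcl1 gained. The deviations of same-numbered arrays correlated at 0.04, 0.04 and -0.03. Controls 1 and 2 correlated best with their own number, and control 3 did not. Values this small cannot tell whether same-numbered mice shared a batch, which the labels do not give. POMCMfn2KO 4 and 5 have no partner. Among members that were not called, Cdh5, Vwf, Bmp6, Wnt2 and Wnt9b changed sign under some alternatives. Why calls were lost was not tested. Signal near background limits Sparcl1, Pecam1 and Tie1. Sparcl1 is among the members counted with array weights, with the replicate block and without POMCMfn2KO 4.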
